A study of Homo sapiens with 4 samples.

Results

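The aminoacyl-tRNA synthetases are the enzymes that join each amino acid to its tRNA before translation. The 35 genes described here encode 19 synthetases or synthetase subunits of the cytosol and 16 of the mitochondrion, out of 18417 genes measured. Members were taken by gene symbol, with cytosolic enzymes recognised by names ending in 1 together with FARSA and FARSB, and mitochondrial enzymes by names ending in 2. All 35 were found. For VARS1 and VARS2, which have more than 1 probe set, the probe set with the highest mean level was used, and the other 33 genes have a single probe set.

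Cytosolic synthetases supply charged tRNA to the ribosomes of the cytosol, and a separate set of nuclear genes supplies the mitochondrial ribosome. Some cytosolic enzymes sit together in a multisynthetase complex. When amino acids run short, uncharged tRNA activates the kinase GCN2 (EIF2AK4), eIF2 is phosphorylated, and the transcription factor ATF4 is made and induces genes of amino acid supply, among them many cytosolic synthetases. This amino acid response also follows other stresses that reach eIF2.

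The groups were U2-OS cells with 600 μg/mL OGE, U2-OS cells with 0 μg/mL, HOS cells with 600 μg/mL OGE and HOS cells with 0 μg/mL, all for 24 h and with 1 array each. U2-OS and HOS are established human osteosarcoma lines, and the labels do not spell out OGE. The series asks how OGE alters gene expression in these lines, which were all grown in the same serum-containing medium. Values are RMA expression levels on a log2 scale as deposited, so a difference of 1 is 2-fold. In such bulk RNA, fewer cells expressing a gene and less of its RNA per cell cannot be told apart.

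Array medians over all probe sets lay between 3.58 and 3.62, and no arrays were identical. Every synthetase gene was above the array median on all 4 arrays. Of 6 osteoblast and mesenchymal markers, 5 were above it on every array, and ALPL was below it in untreated U2-OS, at 3.53. Sums of marker levels are given here as sums of log2 values, which are not summed amounts of RNA. The sum of the 6 was 36.81 with OGE and 40.66 without it in U2-OS, and 42.35 and 45.87 in HOS. None of the 3 epithelial, 3 immune and 3 endothelial markers was above the median on all arrays. The epithelial markers EPCAM and KRT19 were above it on both HOS arrays. EPCAM was at 3.81 with OGE and 4.65 without in HOS, and KRT19 at 4.10 and 3.84. The epithelial sum was 9.32 with OGE and 8.98 without it in U2-OS, and 10.22 and 10.95 in HOS. The immune sum was 6.42 and 6.11 in U2-OS and 6.59 and 6.59 in HOS, and the endothelial sum was 7.05 and 6.47 in U2-OS and 7.31 and 7.91 in HOS. The part of these shifts in the results was not tested.

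ATF4 binds, with partners of the C/EBP family, a composite element whose core can be written TGATGNAA. This core was searched on both strands in the RefSeq promoter windows of GRCh38.p14, which run from 250 bases before to 50 bases after each annotated start. Windows were found for 30 members, without LARS1, VARS1, YARS1, AARS2 and VARS2. The core was present in 7 of 16 cytosolic genes (43.8%) and in 1 of 14 mitochondrial genes (7.14%), against 3.59% of the 14239 measured genes with a window. The 7 cytosolic genes all belong to the 13 that are known to be induced in the amino acid response, of which 10 had a window. None of the 6 other cytosolic genes held it. A match describes letters and is not evidence of binding. The 8 stretches are shown 5′ to 3′ on the strand of the gene, with the core, or its reverse complement, in capitals.

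AARS1 (chr16:70289676-70289703, minus strand): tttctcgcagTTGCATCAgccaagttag
CARS1 (chr11:3057408-3057435, minus strand): ggggcggcggTTGCATCAgattctagga
GARS1 (chr7:30594835-30594862, plus strand): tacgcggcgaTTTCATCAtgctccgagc
MARS1 (chr12:57488054-57488081, plus strand): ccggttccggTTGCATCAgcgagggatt
IARS1 (chr9:92293693-92293720, minus strand): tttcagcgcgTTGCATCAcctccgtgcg
NARS1 (chr18:57621805-57621832, minus strand): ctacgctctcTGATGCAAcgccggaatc
TARS1 (chr5:33440957-33440984, plus strand): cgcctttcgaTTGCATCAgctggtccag
YARS2 (chr12:32756077-32756104, minus strand): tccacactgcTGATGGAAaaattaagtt

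Positions are those of the first capital letter as shown. In MARS1, CARS1, IARS1 and GARS1 the stretch in capitals begins 4, 2, 13 and 33 bases before an annotated start, and in MARS1 and CARS1 it runs past that start. In TARS1 and NARS1 it begins at bases 3 and 15 of the transcript. It begins further upstream in AARS1 and YARS2, at positions -187 and -197 from the start. Changes with OGE were above 0 in both lines for 4 of the 7 cytosolic genes, AARS1, CARS1, GARS1 and MARS1, and below 0 in both for the other 3, IARS1, NARS1 and TARS1. Among the 9 cytosolic genes with a window but no match, 4 were above 0 in both lines, 3 below 0 in both, and 2 of opposite sign. The median change was 0.37 in U2-OS and 0.25 in HOS with a match, and 0.05 in U2-OS and 0.10 in HOS without.

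The 4 members called by size, described below, had no match in their windows. Their 100 bases before the annotated start are shown for comparison. For SARS1 and WARS1, which have 2 annotated starts each, the start further downstream was taken.

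SARS1 (chr1:109213818-109213917, plus strand): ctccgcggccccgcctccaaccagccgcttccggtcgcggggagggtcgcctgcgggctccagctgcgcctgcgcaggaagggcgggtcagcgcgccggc
WARS1 (chr14:100375348-100375447, minus strand): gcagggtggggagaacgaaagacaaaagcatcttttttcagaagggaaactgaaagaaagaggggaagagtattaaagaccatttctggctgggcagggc
RARS1 (chr5:168486371-168486470, plus strand): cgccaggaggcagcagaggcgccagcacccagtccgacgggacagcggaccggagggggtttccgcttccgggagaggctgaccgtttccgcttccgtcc
IARS2 (chr1:220094032-220094131, plus strand): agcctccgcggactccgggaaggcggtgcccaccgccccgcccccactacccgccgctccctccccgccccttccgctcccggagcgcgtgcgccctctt

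The stretch before WARS1 has 47% G and C, against 80% for SARS1, 71% for RARS1 and 79% for IARS2.

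With 1 array per group, genes were called by size: a call needed an OGE minus control difference of 1 or more on the log2 scale, and a floor required the higher array to reach its median. In U2-OS, 2 synthetase genes were higher, SARS1 and WARS1, against 2.94% of all 11507 genes at that floor, and 2 were lower, RARS1 and IARS2, against 7.88%. In HOS none was higher, against 1.7% of 11334 genes, and 1 was lower, IARS2, against 2.18%. IARS2 was the single member called in both lines, where 1.09% of 10812 genes were lower and 0.768% higher. With a threshold of 1.5-fold, 8 members were higher and 8 lower in U2-OS, against 10.1% and 18.5% of genes. In HOS 5 were higher and 3 lower at 1.5-fold, against 7.43% and 9.68%. CARS1 and SARS1 were higher in both lines at 1.5-fold, where 2.91% of genes were, and FARSB, RARS1 and IARS2 lower in both, where 5.82% were. The median change over the 35 genes was 0.10 in U2-OS and 0.00 in HOS, against -0.01 and 0.02 over all genes at the floor. Without replicates, differences below the threshold cannot be set against any spread within a line.

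**Figure D1:**
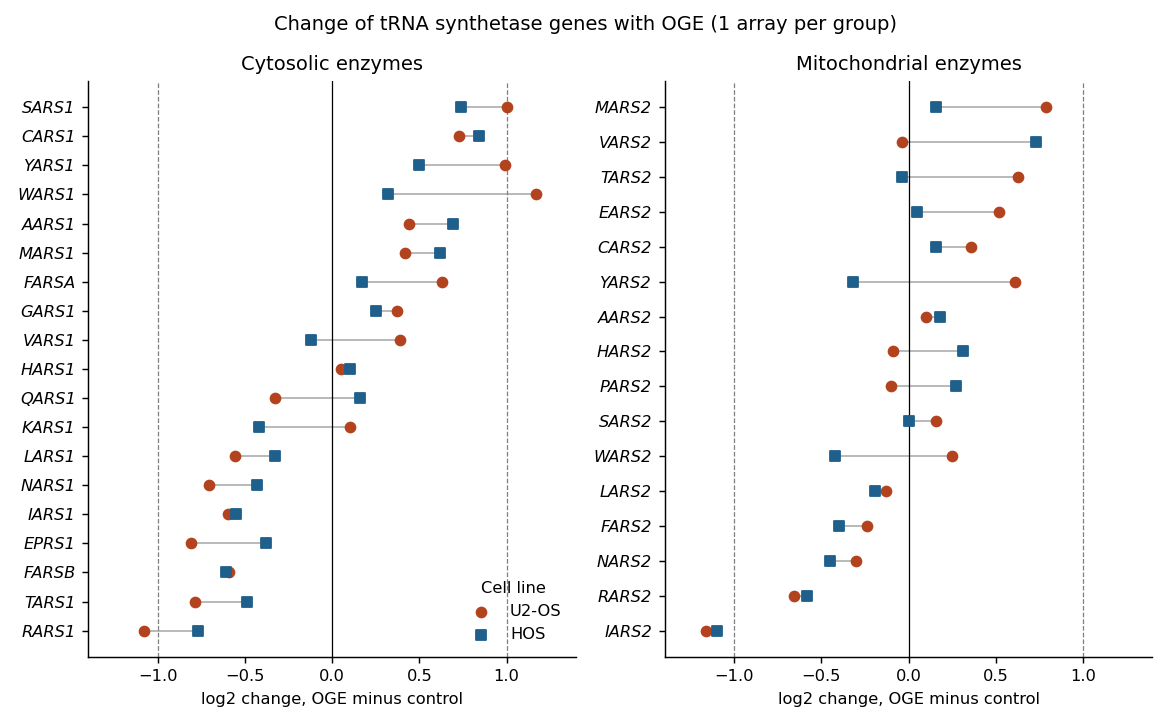
Log2 change with OGE (OGE minus control, horizontal axis) of the 19 cytosolic and 16 mitochondrial synthetase genes, with a circle for U2-OS and a square for HOS. Dashed lines mark a 2-fold change. SARS1, CARS1, YARS1 and WARS1 lead the cytosolic genes, RARS1 and TARS1 close them, and IARS2 lies beyond -1 in both lines.

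SARS1, which charges serine tRNA and, as background, also the tRNA for selenocysteine, was at 9.54 in OGE-treated U2-OS and 8.54 in untreated U2-OS. In HOS it was at 9.25 with OGE and 8.51 without. Both treated arrays were above both untreated arrays. The change was 1.00 in U2-OS and 0.74 in HOS, at percentiles 97.1 and 96.2 of all genes at the floor.

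WARS1, the tryptophan enzyme, which is also known as an interferon-induced gene, was at 7.54 in OGE-treated U2-OS and 6.37 in untreated U2-OS, a change of 1.17, or 2.25-fold. In HOS it was at 8.58 with OGE and 8.26 without, a change of 0.32. Both HOS arrays were higher than both U2-OS arrays. YARS1, the tyrosine enzyme, was at 8.31 with OGE and 7.32 without in U2-OS, and at 8.14 and 7.64 in HOS. Its changes of 0.99 in U2-OS and 0.50 in HOS lay just under the size threshold in U2-OS and well under it in HOS.

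CARS1, the cysteine enzyme, was at 6.90 in OGE-treated U2-OS and 6.17 in untreated U2-OS, and at 7.01 with OGE and 6.17 without in HOS. The untreated lines had the same value, and the changes were 0.73 in U2-OS and 0.84 in HOS. AARS1, the alanine enzyme, reached 8.86 with OGE in each line, against 8.42 in untreated U2-OS and 8.17 in untreated HOS. MARS1, which charges both initiator and elongator methionine tRNA, had 8.74 with OGE and 8.32 without in U2-OS, and 8.91 and 8.29 in HOS. For AARS1 and MARS1, as for SARS1, CARS1 and YARS1, the treated arrays did not overlap the untreated ones. The share of all genes without such overlap was not computed, so this order is not read as particular to these members. GARS1, which serves glycine in both compartments, had smaller changes of 0.37 in U2-OS and 0.25 in HOS.

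**Figure D2:**
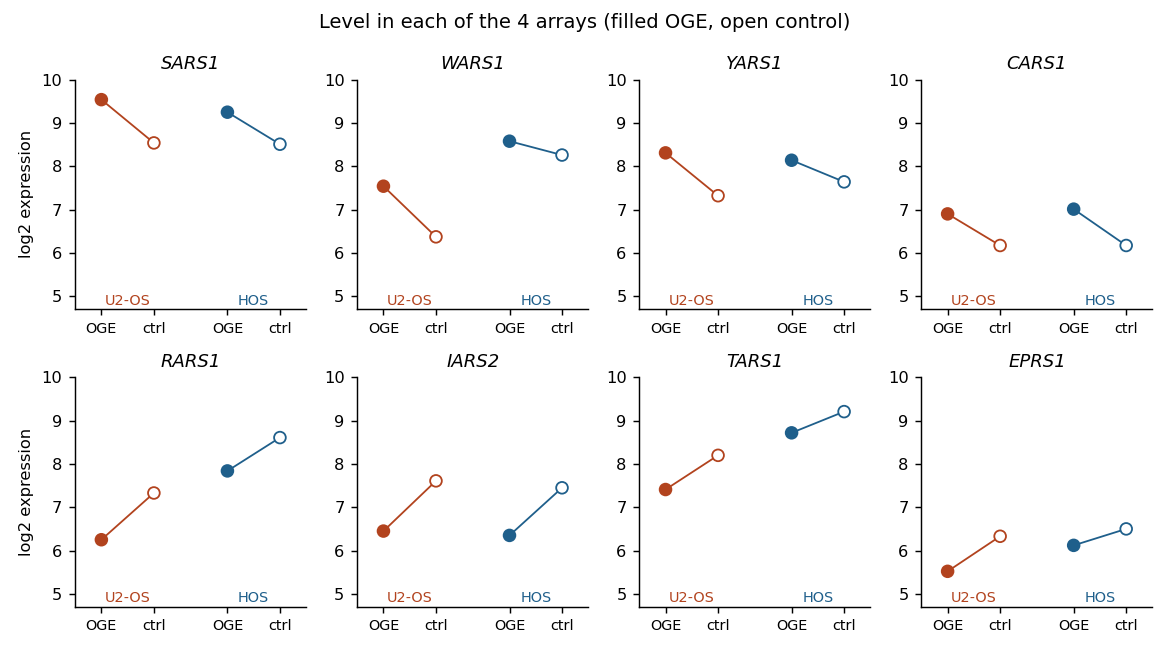
Log2 expression level (vertical axis) of 8 synthetase genes on each array, U2-OS in the left pair and HOS in the right pair of every panel, with filled points for OGE and open points for control. The upper row holds genes with positive changes in both lines, and the lower row genes with negative changes in both. WARS1, RARS1 and TARS1 sit higher in HOS with and without OGE.

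RARS1, the arginine enzyme of the multisynthetase complex, was at 6.25 in OGE-treated U2-OS and 7.33 in untreated U2-OS. In HOS it was at 7.84 with OGE and 8.61 without. It was lower by size in U2-OS with a change of -1.08, or 0.473 times the control level, and had a change of -0.77 in HOS. TARS1, the threonine enzyme, was at 7.41 with OGE and 8.20 without in U2-OS, and at 8.72 and 9.21 in HOS, with changes of -0.79 and -0.49. Both genes had every U2-OS array below every HOS array, so that the treated and untreated arrays overlapped across the lines.

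EPRS1, which carries the glutamate and the proline enzyme in a single protein, was at 5.52 in OGE-treated U2-OS and 6.33 in untreated U2-OS, and at 6.12 and 6.50 in HOS. NARS1, the asparagine enzyme, was at 8.40 with OGE and 9.11 without in U2-OS, and at 8.62 and 9.05 in HOS. For both genes the treated arrays lay below the untreated ones without overlap, and the share of all genes in this order was not computed. IARS1, the isoleucine enzyme, had almost equal values in the lines, 8.29 with OGE and 8.89 without in U2-OS, and 8.30 and 8.85 in HOS. LARS1, the leucine enzyme, which is also described as a leucine sensor for mTORC1, had 6.64 with OGE and 7.20 without in U2-OS, and 7.44 and 7.77 in HOS.

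Phenylalanine tRNA is charged in the cytosol by an enzyme built from alpha subunits (FARSA) and beta subunits (FARSB), and these genes had changes of opposite sign. FARSA was at 7.44 in OGE-treated U2-OS and 6.81 in untreated U2-OS, and at 8.24 with OGE and 8.07 without in HOS. FARSB was at 7.02 with OGE and 7.61 without in U2-OS, and at 7.69 and 8.30 in HOS. The FARSA changes were 0.63 in U2-OS and 0.17 in HOS, and the FARSB changes -0.59 and -0.61, so the sign differed between the subunits in each line. None of these passed the 2-fold threshold.

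The remaining 4 cytosolic genes had small changes or different signs in the lines. HARS1, the histidine enzyme, had changes of 0.05 in U2-OS and 0.10 in HOS. KARS1, which serves lysine in both compartments, had 0.10 and -0.42, QARS1, the glutamine enzyme, -0.33 and 0.16, and VARS1, the valine enzyme, 0.39 and -0.12, U2-OS first in each case. The 2 probe sets of VARS1 had the same values on every array.

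Of the 13 cytosolic synthetases known to be induced in the amino acid response, 7 had changes above 0 in both lines (AARS1, CARS1, GARS1, MARS1, SARS1, WARS1 and YARS1), 5 below 0 in both (EPRS1, IARS1, LARS1, NARS1 and TARS1) and VARS1 opposite signs. Their median change was 0.39 in U2-OS and 0.25 in HOS. Above 0 in both lines were 34.2% of all genes at the floor in both, and 32.0% were below 0 in both. The other 6 cytosolic genes had a median of -0.14 in U2-OS and -0.16 in HOS. In the same arrays, 12 other genes of the amino acid response all had positive changes in both lines, with medians of 0.99 in U2-OS and 1.16 in HOS, and 6 were higher by size in U2-OS, against 2.94% of genes, and 8 in HOS, against 1.7%. The pseudokinase TRIB3 was higher by 2.92 in U2-OS and 1.79 in HOS, CTH, which makes cysteine from cystathionine, by 2.52 and 1.77, the transcription factor DDIT3 (CHOP) by 2.72 and 1.06, and SLC3A2, the heavy chain of amino acid transporters, by 1.82 and 1.49. CTH was below the array median on both untreated arrays, at 2.63 in U2-OS and 2.94 in HOS. The 12 genes were listed with earlier results of these arrays known and are not independent evidence of direction. ATF4, itself among the 12 and named here as the factor of the pathway after its values were seen, had changes of 0.97 in U2-OS and 0.63 in HOS. All 4 eIF2 kinases had negative changes in U2-OS, and 2 were lower by size there, against 7.88% of genes. In HOS, 2 of the 4 had negative changes, and none was called. EIF2AK4, which senses uncharged tRNA, had -1.46 in U2-OS and -0.91 in HOS, and EIF2AK2 (PKR), which is activated by double-stranded RNA, -1.04 and -0.54. EIF2AK1 had -0.89 in U2-OS and 0.05 in HOS, and EIF2AK3 had -0.68 and 0.07.

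Of the 7 members that belong to the multisynthetase complex, EPRS1, IARS1, LARS1 and RARS1 had negative changes in both lines, MARS1 positive changes in both, and KARS1 and QARS1 opposite signs. The median was -0.56 in U2-OS and -0.38 in HOS. Of the complex's scaffold genes AIMP1 was measured. It was below the array median on all 4 arrays, with changes of -0.09 in U2-OS and -0.23 in HOS.

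Among mitochondrial enzymes, IARS2, which charges isoleucine tRNA, was lower by size in both lines. Its level was 6.45 in OGE-treated U2-OS and 7.61 in untreated U2-OS, and 6.35 with OGE and 7.45 without in HOS. The treated arrays were close to each other and lay about as far below the untreated ones in each line. The changes of -1.16 in U2-OS and -1.10 in HOS correspond to 0.448 and 0.467 times the control level, at percentiles 5.4 and 1.4 of all genes at the floor. RARS2, the arginine enzyme, was at 4.49 with OGE and 5.15 without in U2-OS, and at 5.38 and 5.96 in HOS, with changes of -0.66 and -0.58. NARS2, FARS2 and LARS2, for asparagine, phenylalanine and leucine, also had negative changes in both lines, between -0.45 and -0.13.

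Positive in both lines were 4 mitochondrial genes, MARS2, EARS2, CARS2 and AARS2. MARS2, the methionine enzyme, was at 5.35 in OGE-treated U2-OS and 4.56 in untreated U2-OS, and at 5.88 with OGE and 5.72 without in HOS. The U2-OS change of 0.79 was the highest of the 16 mitochondrial genes in that line, and the HOS change was 0.16. EARS2, which charges both the glutamate and the glutamine tRNA of the mitochondrion with glutamate, had changes of 0.52 in U2-OS and 0.05 in HOS. CARS2 had 0.36 and 0.16, and AARS2 had 0.10 and 0.18, in U2-OS and HOS. SARS2 had a change of 0.16 in U2-OS and none in HOS.

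The other 6 mitochondrial genes had opposite signs in the lines. YARS2, the tyrosine enzyme, was at 6.34 in OGE-treated U2-OS and 5.73 in untreated U2-OS, and at 6.02 with OGE and 6.34 without in HOS. TARS2, for threonine, was at 5.78 with OGE and 5.15 without in U2-OS, and at 6.59 and 6.63 in HOS. VARS2, for valine, was at 5.48 and 5.52 in U2-OS and at 5.39 and 4.66 in HOS, with OGE given first. The changes in U2-OS and HOS were 0.61 and -0.32 for YARS2, 0.63 and -0.04 for TARS2, and -0.04 and 0.73 for VARS2, none of them past the size threshold. The second probe set of VARS2 had changes of -0.07 in U2-OS and 0.74 in HOS. WARS2, HARS2 and PARS2 differed in sign with changes between -0.42 and 0.31.

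HARS2 and HARS1 lie head to head, and the bases between their annotated starts are shown because the genes share them, on the strand of HARS2.

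HARS2 (chr5:140691371-140691454, plus strand): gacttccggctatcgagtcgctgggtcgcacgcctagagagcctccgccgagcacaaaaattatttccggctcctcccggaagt

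HARS2 was at 5.66 in OGE-treated U2-OS and 5.75 in untreated U2-OS, and at 6.50 with OGE and 6.19 without in HOS. HARS1 was at 6.48 and 6.43 in U2-OS and at 7.24 and 7.14 in HOS, with OGE first. Neither gene had a 1.5-fold change in either line.

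The cytosolic and mitochondrial sets were compared by their median change. The cytosolic median was 0.10 and the mitochondrial 0.03 in U2-OS, a difference of 0.07, and in HOS they were 0.10 and -0.02, a difference of 0.12. No test was made over members, which are not replicates. The U2-OS difference was 0.00 in means, and after quantile normalization the differences were 0.15 in U2-OS and 0.20 in HOS. Cytosolic changes were more widely spread around 0 than mitochondrial ones on these arrays. Mitochondrial levels were lower, from 3.86 for FARS2 to 7.61 for IARS2, against 5.52 for EPRS1 to 9.54 for SARS1 in the cytosolic set. RMA compresses differences at low signal, and the part of level in the spread was not tested. The median size of a change, without its sign, was 0.60 for cytosolic and 0.28 for mitochondrial genes in U2-OS, against 0.35 for all genes at the floor. In HOS it was 0.43 for cytosolic and 0.29 for mitochondrial genes, against 0.27 for all. The SD over members was 0.71 for cytosolic and 0.51 for mitochondrial genes in U2-OS, and 0.51 and 0.44 in HOS, where all genes at the floor had 0.64 in U2-OS and 0.45 in HOS.

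Synthetases also fall into 2 structural classes with unrelated catalytic folds, which cut across the compartments. The 19 class I members had median changes of 0.25 in U2-OS and -0.12 in HOS, and the 16 class II members 0.08 and 0.05. EPRS1, which also carries the proline enzyme, was counted in class I alone, while the mitochondrial proline enzyme PARS2 was counted in class II. Both signs were found in each class, with 7 class I members above 0 in both lines and 7 below, and 6 class II members above and 5 below.

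Enzymes for the same amino acid in both compartments gave 17 pairs over 16 amino acids. The cytosolic change was the higher in 9 pairs in U2-OS and 9 in HOS, in 7 of them in both lines, and the lower in both lines in 6. Tryptophan, serine, cysteine, alanine, tyrosine, isoleucine and the alpha subunit for phenylalanine had the higher cytosolic change in both lines. For serine the cytosolic minus mitochondrial difference was 0.84 in U2-OS and 0.74 in HOS, and for tryptophan 0.92 and 0.74. For isoleucine it was 0.56 in U2-OS and 0.55 in HOS although both genes had negative changes. Threonine had the reverse order, -1.42 in U2-OS and -0.45 in HOS, and so had glutamate with -1.33 and -0.43. Arginine genes had negative changes in both compartments and both lines, as had those for isoleucine, leucine and asparagine.

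**Figure D3:**
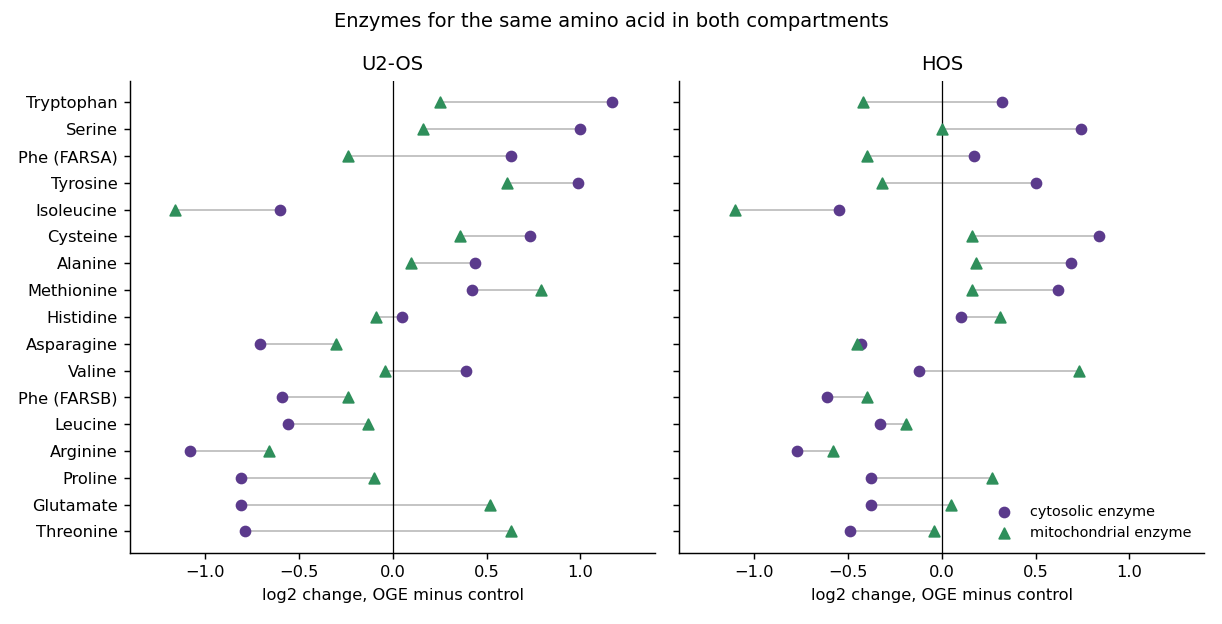
Log2 change with OGE (OGE minus control, horizontal axis) of the cytosolic (circle) and mitochondrial (triangle) enzyme for each amino acid, in U2-OS on the left and HOS on the right. EPRS1 stands for both glutamate and proline, and FARS2 is paired with each cytosolic phenylalanine subunit. Serine and tryptophan have the cytosolic enzyme to the right in both lines, and glutamate and threonine the mitochondrial one.

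Over the 35 genes, the changes in U2-OS and HOS correlated at r = 0.74, and over all 10812 genes at the floor in both lines at r = 0.55. These arrays are separate in the lines, but genes are not independent replicates and no p is given. Cytosolic genes alone gave r = 0.85 (19 genes) and mitochondrial genes r = 0.55 (16 genes). The sign was shared by 16 of 19 cytosolic genes, 9 above 0 and 7 below, and by 9 of 16 mitochondrial genes, 4 above and 5 below. In all 9 members had opposite signs, where 31.8% of all genes at the floor did. The U2-OS minus HOS difference of the changes ran from -0.77 for VARS2 to 0.93 for YARS2, with a median of 0.02. With 1 array per group, this difference has no test.

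**Figure D4:**
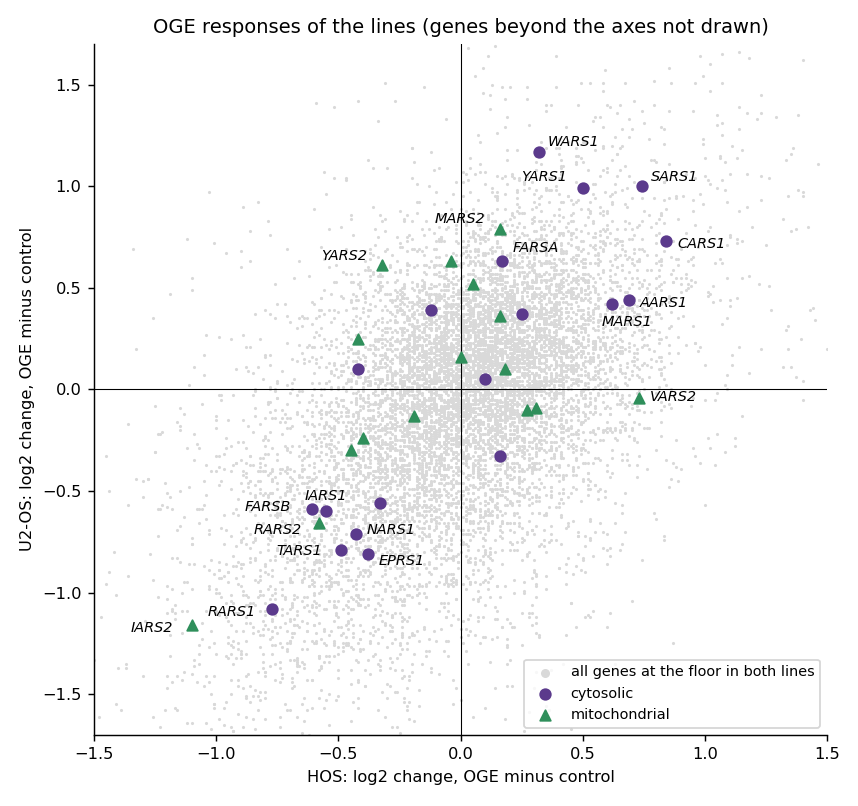
Log2 change with OGE in U2-OS (vertical axis) against that in HOS (horizontal axis), with cytosolic genes as circles, mitochondrial genes as triangles and all genes at the floor in grey. Genes beyond the axes are not drawn. SARS1, CARS1, YARS1 and WARS1 lie in the upper right, and IARS2, RARS1, TARS1 and FARSB in the lower left.

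The test over both lines was limma with the cell line as a block, on all 18417 genes, with the lines as the repeats of OGE and 1 residual degree of freedom before moderation. Nothing in the labels gives separate cultures, so p-values measure the spread between these arrays alone. No member passed an adjusted p of 0.05, and nor did any other gene (0.0%), with a smallest adjusted p of 0.228 in limma. At an unadjusted p under 0.05 there were 14 members, 6 higher and 8 lower, against 14.2% of all genes. All 35 members were at the floor in both lines, where 2261 of 10812 genes had such a p in limma. Of the 14 members, 12 were cytosolic and 2, IARS2 and RARS2, mitochondrial. The SE given here are those of limma, moderated with the spread of all genes. IARS2 had a mean change of -1.13 ± 0.17 (moderated SE, n = 2 lines), with an adjusted p of 0.228 in limma. The adjusted p in limma reached 0.0457 after quantile normalization, where 264 genes were called, within a range of 0.0457 to 0.761 over 6 alternatives. RARS1 had -0.93 ± 0.18 with an adjusted p of 0.228 in limma, SARS1 0.87 ± 0.18 with 0.231 and CARS1 0.79 ± 0.17 with 0.239.

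The same genes were compared between the lines with and without OGE. In both treatment states the level of 17 of 35 genes was lower in U2-OS than in HOS, against 36.3% of 11070 genes, and that of 7 was higher. The median difference U2-OS minus HOS was -0.18 with OGE and -0.33 without. By size, RARS1, TARS1 and WARS1 were lower in U2-OS in both states, against 3.17% of genes, and none was higher, against 3.0%. RARS1 differed by -1.59 with OGE and -1.28 without, TARS1 by -1.31 and -1.01, and WARS1 by -1.04 and -1.89. With limma, the treatment states were the repeats. RARS1 passed in limma over all genes with a difference of -1.44 ± 0.18 (moderated SE) and an adjusted p of 0.0473, against 1.92% of genes called. TARS1 had an adjusted p of 0.0633 and WARS1 of 0.0746 in limma. The RARS1 value ran from 0.00653 to 0.243 over the alternatives in limma, and without the block the call was lost. Unadjusted, 13 members were lower and 1, QARS1, higher in U2-OS, against 20.7% of all genes.

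The difference between the lines was smaller in size with OGE than without for 17 members and larger for 18. TARS2 differed by -0.81 with OGE and -1.48 without, FARSA by -0.80 and -1.26, and MARS2 by -0.53 and -1.16. In the other direction, EPRS1 differed by -0.60 with OGE and -0.17 without, HARS2 by -0.84 and -0.44, and LARS1 by -0.80 and -0.57. Of all 35 genes, 3 were lower by size in U2-OS with OGE, against 6.24% of genes at the floor, and 6 without, against 5.64%.

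Partner genes of tRNA charging were listed together with the members. Of 4 mitochondrial partners, GATB, GATC and QRSL1, which encode the amidotransferase that completes glutamine tRNA, and MTFMT, which formylates the initiator tRNA, none passed the size threshold. MTFMT was at 5.34 with OGE and 5.93 without in U2-OS, and at 5.65 and 6.40 in HOS, and GATC had changes of 0.44 in U2-OS and 0.19 in HOS. The deacylases of D-aminoacyl-tRNA had changes of 0.61 in U2-OS and -0.14 in HOS for DTD1, and -0.84 in U2-OS and -0.30 in HOS for DTD2. TARS3, a further cytosolic threonine enzyme, had -0.09 in U2-OS and -0.18 in HOS. The 5 cytosolic elongation factor genes had medians of 0.30 in U2-OS and 0.31 in HOS, with EEF2 at 0.35 and 0.50. The 8 measured mitochondrial translation factor genes had medians of -0.29 and -0.38, with MTIF2 at -0.54 in U2-OS and -0.68 in HOS, and GFM1 at -0.41 and -0.78. None of these factors was called by size, and MTIF3 and MTRF1, below the array median on all 4 arrays, could not be.

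Genes with a longer span in RefSeq (GRCh38.p14) had lower changes in both lines over all genes at the floor, and the synthetase genes were set beside their spans. All genes were cut by span into 3 groups of 3601. Among the 12 members in the longest group, above 42.5 kb, 9 had negative changes in both lines and 2, CARS1 and CARS2, positive changes in both. The shares of all genes of each group with such signs were not computed, so these counts are not read as particular to the members. The median change of the 12 was -0.43 in U2-OS and -0.41 in HOS, against -0.24 and -0.10 over all genes of that group. Of the 16 members in the middle group, 3 had negative changes in both lines, NARS1, RARS1 and TARS1, and 9 positive ones. Their medians were 0.38 in U2-OS and 0.08 in HOS, against -0.01 and 0.04 for all its genes. The 7 shortest members had medians of -0.04 in U2-OS and 0.17 in HOS, against 0.17 and 0.11. The median span was 36.6 kb for the 13 members with positive changes in both lines and 77.0 kb for the 12 with negative ones. Across members, log10 of the span and the change correlated at r = -0.29 in U2-OS and -0.37 in HOS, against -0.32 and -0.23 over 10803 genes, which share their arrays. The part of span in these changes was not tested.

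**Figure D5:**
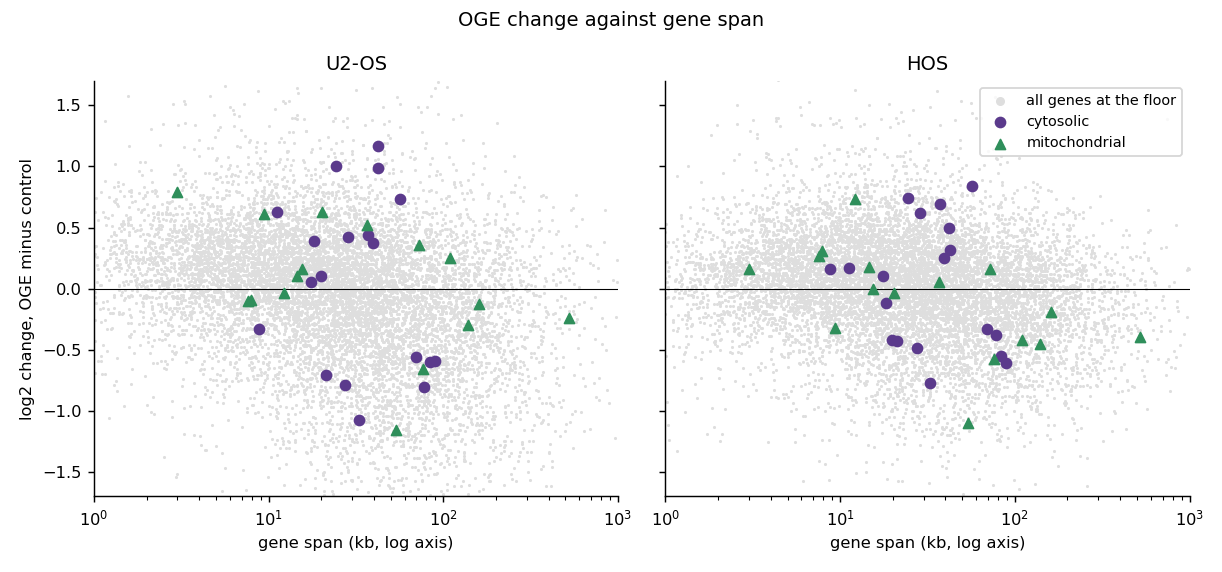
Log2 change with OGE (vertical axis) against gene span in kb (horizontal log axis), in U2-OS on the left and HOS on the right, with cytosolic genes as circles, mitochondrial genes as triangles and all genes at the floor in grey. Genes beyond the axes are not drawn. Most members beyond 42.5 kb lie below 0 in both lines, and NARS1, RARS1 and TARS1 lie below 0 at shorter spans.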

How the data were processed

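Trizol-extracted total RNA of each of the 4 samples was amplified and biotin-labelled as sense-strand targets, per the labels' protocols, and hybridised to 1 array. The deposited values are log2 expression levels. Per the submitters' processing notes RMA was used (version not given in the sources used here), a method with background correction, quantile normalization and a summary of probes, which compresses differences at low signal. The log2 base was taken from the range of 0.16 to 13.41, and values carry 2 decimals. Precision is limited by the number of arrays.

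Of 33297 probe sets, 19460 have 1 gene symbol in the platform annotation, 1754 several and 12083 none. Of the 19460, 19429 were matched by gene ID to RefSeq. The 18417 genes were then tested with limma 3.58.1 in R 4.3.3, with Benjamini-Hochberg adjustment over all of them. This step was tested on simulated data. The members, gene lists and the motif were chosen with earlier results of these data known. All members could be named, and of other lists up to 4 genes with the largest mean absolute change. ATF4, ALPL and MTRF1 fall outside this rule and were named after their values were seen. AARSD1 shares its probe set with other genes, and AIMP2, EEF1E1 and GFM2 were not analysed here. Alternatives were other thresholds, floors, normalizations, probe-set rules and limma settings.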

Additional observations from a re-analysis of the deposited data

Results flagged for a closer look

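The following 9 members had changes with OGE of opposite sign in the lines. With 1 array per group none of these differences was tested. The U2-OS minus HOS difference of the changes was 0.93 for YARS2, 0.67 for TARS2, 0.67 for WARS2, 0.52 for KARS1 and 0.51 for VARS1. It was -0.77 for VARS2, -0.49 for QARS1, -0.40 for HARS2 and -0.37 for PARS2. Of the 9 genes, 6 are mitochondrial and 3 cytosolic, out of 16 and 19.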

How the results depend on the processing

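The labels give no replicate numbers, and treated and untreated arrays were paired in limma by the cell line alone. At 1.5-fold, U2-OS had 8 members higher and 8 lower, HOS had 5 higher and 3 lower, and at 3-fold none was called in either direction (0 higher and 0 lower in U2-OS, 0 lower in HOS), which follows from the threshold. YARS1 passed the size threshold in U2-OS after quantile normalization, with 1.13, and cyclic loess, with 1.06, and the other 208 values of single genes under 3 alternatives stayed on their side of it. The cytosolic minus mitochondrial difference in U2-OS was 0.15 after quantile normalization, 0.14 after cyclic loess, 0.00 for members at or above the median level over all genes and -0.001 in means, and in HOS 0.20 after quantile normalization; the cause was not tested. The median U2-OS minus HOS difference of the changes was 0.068 after cyclic loess. For OGE, quantile normalization gave limma 1 member that passed, IARS2, lower with OGE, among 264 of 18417 genes called. The other alternatives in limma gave 0 members. Between the lines, limma called 7 members lower in U2-OS after quantile normalization, where 1763 of 18417 genes were called in either direction. It called 4 members after cyclic loess, where 1326 genes were called, and 6 with trend and robust moderation, where 1309 were. With genes under the median level left out, it called 3 members and 749 of 9209 genes. Without the block it called 0 members and 131 of 18417 genes. The cause was not tested.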
